A study of Mus musculus with 7 samples.

Results

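The genes described here are 29 markers of 2 related cell states of the brain, read in mouse high-grade gliomas and in the cultured neural progenitors of one model. They were taken as a list of gene symbols, 20 of astrocytes (Gfap to Id4 in the order of the list) and 9 of radial glia and neural stem cells (Nes to Hopx). The rule for membership uses no measured value, but the members were chosen with earlier results of these data known. The 29 were found among the 17422 genes of each library. RNA had been sequenced from 7 libraries. The first group was 3 gliomas labelled PDGF-B. Per the labels they grew in the brains of adult BALB/c mice from wild-type Balb/c embryonic neural precursors carrying retroviral PDGF-B, a growth factor that binds and activates the PDGF receptors, together with the red fluorescent protein DsRed. The second group was 3 gliomas labelled EGFRvIII, grown, per the labels, in the same host strain from Balb/c precursors of genotype Ink/Arf -/- carrying EGFRvIII, a truncated form of the epidermal growth factor receptor that signals without ligand, and DsRed. The third group was 1 culture of wild-type Balb/c progenitors from embryonic day 14, transduced with PDGF-b and DsRed and never grafted. Precursors for the grafts were likewise from day 14 and were grafted after 10 days at 20000 cells per mouse. Both the culture and the precursors for the grafts were kept in medium with bFGF and EGF at 10 ng/ml. The tumours of each label are described as independent. Cells of every library were sorted for DsRed, the labelled oncogene and Ink/Arf genotype differ together between the glioma groups, driver genes read in the libraries ran against both labels (values below), and host ages were not given in the sources used here.

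Radial glia are the stem cells of the developing forebrain. Their long processes are built from the intermediate filaments nestin and vimentin, they carry the SoxB1 transcription factors and the fatty acid binding protein Fabp7, and Notch and fibroblast growth factor signals keep them dividing. They later give rise to astrocytes, which keep several of the same genes and add the machinery for which they are known: uptake of glutamate from synapses, its conversion to glutamine, water and ion channels in the end-feet around vessels, and gap junctions that couple neighbouring cells. Markers of both states are read in glioma to describe how far tumour cells resemble stem cells or differentiated glia.

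Each library held between 32513747 and 39062584 reads as recovered from the deposited values. The genes that check the labels ran against them in all 6 gliomas: Egfr stood at 4952, 5109 and 3594 CPM (reads scaled to library size) in replicates 1 to 3 labelled PDGF-B, against 41.2, 26.9 and 25.6 CPM in EGFRvIII-labelled gliomas. Pdgfb stood at 1.95, 2.97 and 4.88 CPM in PDGF-B-labelled gliomas, against 386, 284 and 277 CPM in EGFRvIII-labelled gliomas. The PDGF-B culture held Pdgfb at 245 CPM and Egfr at 282 CPM, and Pdgfb was called lower than in the culture in PDGF-B-labelled gliomas (limma adjusted p = 0.00125) and not in EGFRvIII-labelled gliomas (0.716). Cdkn2a, a gene of the Ink/Arf locus, was read at 3.52, 2.94 and 4.99 CPM in the wild-type-labelled gliomas and at 22.7, 26.1 and 11.1 CPM in those labelled Ink/Arf -/-. The libraries are therefore called by their labels throughout. Whether the 2 glioma labels were exchanged was not tested; an exchange would turn round every direction given between the glioma groups, those of S100b, Cp, Apoe and Icam1 included, and would swap the group named in each comparison with the culture. On the leading component of a principal component analysis of the 6 gliomas, which held 55.7% of the variance, PDGF-B replicate 3 lay at -5.77, apart from replicates 1 and 2 at -89.3 and -88.7, while the EGFRvIII replicates lay at 37.2, 102 and 44.2. In bulk RNA, fewer cells of a type and less RNA per cell cannot be told apart.

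The start sites of 5 of the genes called against the culture are shown first. Of these, 4 (Fabp7, Prom1, Hes5 and Id4) were lower in gliomas than in the culture, and 1 (S100b) was higher. Their sequences can thus be set side by side. Each line is the 250 bases before the RefSeq start on GRCm38.p6, written 5′ to 3′ on the strand of the gene. Capitals mark the core of the site of the Notch partner RBPJ (TGGGAA, or TTCCCA on the other strand) and the short site of nuclear factor I proteins (TTGGC, or GCCAA), and both strands were searched. In these windows no base belongs to both motifs, and in Id4 an RBPJ core and a nuclear factor I site stand directly next to each other.
Fabp7 (chr10:57784673-57784922, plus strand): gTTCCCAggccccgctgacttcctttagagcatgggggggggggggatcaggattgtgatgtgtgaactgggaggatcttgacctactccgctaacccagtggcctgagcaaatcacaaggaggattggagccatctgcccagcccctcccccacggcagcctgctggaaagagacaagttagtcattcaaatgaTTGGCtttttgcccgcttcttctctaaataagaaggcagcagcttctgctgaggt
Prom1 (chr5:44101737-44101986, minus strand): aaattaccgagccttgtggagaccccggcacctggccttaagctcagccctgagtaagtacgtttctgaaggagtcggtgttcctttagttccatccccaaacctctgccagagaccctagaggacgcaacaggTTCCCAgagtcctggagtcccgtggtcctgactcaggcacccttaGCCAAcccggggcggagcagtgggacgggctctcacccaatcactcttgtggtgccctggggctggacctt
Hes5 (chr4:154960673-154960922, plus strand): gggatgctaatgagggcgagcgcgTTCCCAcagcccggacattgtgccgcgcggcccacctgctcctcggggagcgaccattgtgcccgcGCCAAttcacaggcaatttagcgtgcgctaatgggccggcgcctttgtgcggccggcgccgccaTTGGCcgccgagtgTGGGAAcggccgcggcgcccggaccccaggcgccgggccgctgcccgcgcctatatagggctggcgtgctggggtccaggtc
Id4 (chr13:48260866-48261115, plus strand): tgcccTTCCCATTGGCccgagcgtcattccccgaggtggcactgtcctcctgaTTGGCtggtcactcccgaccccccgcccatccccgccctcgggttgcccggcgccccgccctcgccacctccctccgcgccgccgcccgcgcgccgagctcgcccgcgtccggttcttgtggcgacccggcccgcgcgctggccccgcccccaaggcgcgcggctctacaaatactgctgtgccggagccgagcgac
S100b (chr10:76253586-76253835, plus strand): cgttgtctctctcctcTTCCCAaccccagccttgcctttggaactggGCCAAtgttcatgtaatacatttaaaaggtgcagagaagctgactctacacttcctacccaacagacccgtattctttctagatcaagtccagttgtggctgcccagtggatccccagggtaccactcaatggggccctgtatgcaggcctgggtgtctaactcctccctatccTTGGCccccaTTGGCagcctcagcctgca
Fabp7, Prom1, Id4 and S100b are members, and Hes5, a Notch target that keeps radial glia undifferentiated, comes from the list of other radial glia genes. All 5 printed windows held both motifs, and they were picked for their genes, so that their count is no share. A second RefSeq window of Prom1, not printed, held neither motif, and neither did the 2 windows of Fgfr3. Among the 24 members with a window, the RBPJ core was found in 12 of 32 windows (37.5%, against 21.6% of the 32851 RefSeq windows of the same length), the nuclear factor I site in 17 (53.1%, against 41.5%) and both in 8 (25%, against 9.18%). Within the 5 printed windows, the gene that was higher in gliomas held the same motifs as the 4 that were lower. This covers the printed genes only, and every printed window held both motifs, so the sameness follows from the windows shown. Of the called members not printed, Slc4a4 held both motifs, while the windows of Slc1a2, Id3, Sox2 and Hopx held no RBPJ core. A match of letters is a description of the window and not a bound site.

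Against the culture, the radial glia genes lay on one side. In all 6 gliomas 7 of the 9 stood below the culture and none of them above it, where 24% of all genes were below and 27.4% above in every glioma; a library with no read was set here at the 3 reads that a count of 0 allows. The astrocyte genes lay on both sides, 11 of 20 below the culture in all 6 gliomas and 5 above (Slc1a2, S100b, Clu, Cldn10 and Ndrg2). Each of the 6 gliomas had the same number of radial glia genes more than 2-fold below the culture, 7 of 9, against 9.01% to 17.1% of all genes. For the astrocyte genes that number ran from 8 to 12 of 20, and between 3 and 6 of the 20 stood more than 2-fold above it.

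Tests were made with limma on all 17422 genes, with p-values adjusted over all of them by the Benjamini-Hochberg method, and a gene was called at an adjusted p under 0.05. In PDGF-B-labelled gliomas against the culture, 10 of the 29 members were called where 9.45% of all genes were. Of the astrocyte genes, 2 were higher (Slc1a2 and S100b) and 4 lower (Fgfr3, Sox9, Id3 and Id4), and of the radial glia genes none was higher and 4 were lower (Sox2, Prom1, Fabp7 and Hopx). Over all genes, 7.73% passed the test upward and 1.73% downward. In EGFRvIII-labelled gliomas against the culture, 8 members were called where 9.55% of all genes were, 8.2% upward and 1.34% downward. S100b was higher, Fgfr3, Slc4a4, Id3 and Id4 were lower, and so were Sox2, Prom1 and Fabp7. Both comparisons share the single culture library, which has no replicate and is assumed in the test to vary as the gliomas do. Counting all 3 comparisons of the study, 11 of the 29 were called in at least one, against 13.5% of all genes, and 18 in none. Of the called members, all but Fgfr3 and Id4 lost their call against the culture under at least 1 of 8 alternative settings, with limma adjusted p between 0.0501 and 0.114.

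The median log2 fold change of the 9 radial glia genes was -3.21 in PDGF-B-labelled gliomas and -2.49 in EGFRvIII-labelled gliomas, both against the culture, while the median over all genes was 0.04 and 0.01. For the 20 astrocyte genes the medians were -1.80 and -1.41. A fold change here is a difference of mean deposited log2 values, given with its standard error as ±, and those values carry a small added count and so understate changes in genes with low counts. Between the glioma groups the medians were -0.23 for the astrocyte genes and -0.17 for the radial glia genes.

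**Figure D1:**
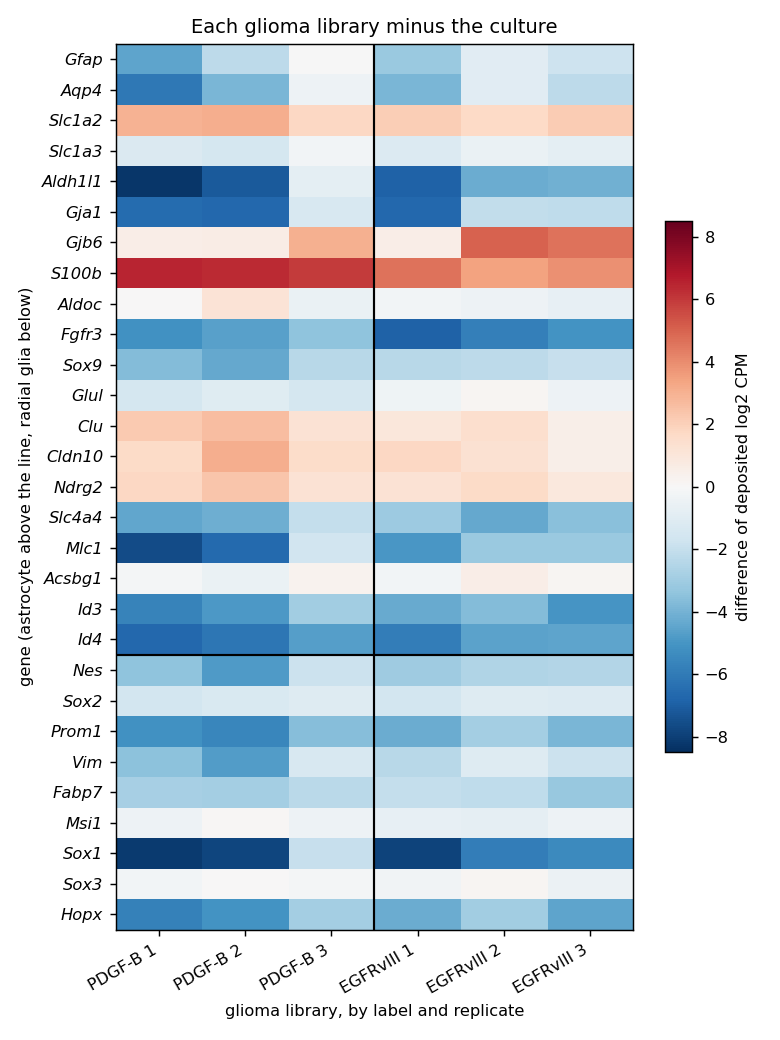
Heat map of the difference in deposited log2 CPM between each glioma library (columns, labelled by group and replicate) and the culture, for the 29 genes (rows, astrocyte genes above the line and radial glia genes below it). The radial glia block is below 0 in all 6 columns for 7 of its 9 genes, and the astrocyte block holds both signs, with S100b among the rows above 0.

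The intermediate filament genes of radial glia were high in the culture and uneven among the gliomas. Nes, which encodes nestin, was read at 122.7, 47.3 and 381 CPM in PDGF-B-labelled gliomas and at 163, 223 and 242 CPM in EGFRvIII-labelled gliomas, against 1341 CPM in the culture. Vim, which encodes vimentin, was read at 236, 100.5 and 1028 CPM in PDGF-B-labelled gliomas and at 515, 1289 and 775 CPM in EGFRvIII-labelled gliomas, against 2693 CPM in the culture. Every glioma lay under the culture for both genes, yet neither passed the test. The log2 fold change of Nes was -3.36 ± 0.95 in PDGF-B-labelled gliomas (limma adjusted p = 0.071) and -2.70 ± 0.95 in EGFRvIII-labelled gliomas (limma adjusted p = 0.134). Without PDGF-B replicate 3, which held the highest level of both genes in its group, Nes and Vim were lower in PDGF-B-labelled gliomas at limma adjusted p of 0.00576 and 0.0109.

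The SoxB1 factors, which hold neural stem cells in an undifferentiated state, differed from one another. Sox2 (ENSMUSG00000074637, chromosome 3, 34650405 to 34652461, GRCm38) was read at 137, 162 and 186 CPM in PDGF-B-labelled gliomas and at 134, 182 and 178 CPM in EGFRvIII-labelled gliomas, against 397 CPM in the culture. Its spread within each glioma group was small and all 6 libraries were below the culture. It fell by 1.31 ± 0.29 on the log2 scale in PDGF-B-labelled gliomas (limma adjusted p = 0.0335) and by 1.28 ± 0.29 in EGFRvIII-labelled gliomas (limma adjusted p = 0.0345). The first call ended without PDGF-B replicate 1 or 2 (limma adjusted p of 0.112 and 0.0801), and the second without EGFRvIII replicate 1 or 3 (0.0729 and 0.0700). Sox1 was read at 0.0583, 0.0909 and 8.40 CPM in PDGF-B-labelled gliomas and at 0.0860, 0.508 and 0.742 CPM in EGFRvIII-labelled gliomas, against 33.3 CPM in the culture. The lowest values stand for 2 and 3 reads, against 300.0 reads in PDGF-B replicate 3, and neither culture comparison passed the test (limma adjusted p of 0.148 and 0.142). Sox3 lay at 48.0, 57.8 and 48.4 CPM in PDGF-B-labelled gliomas and at 44.2, 62.1 and 39.2 CPM in EGFRvIII-labelled gliomas, on both sides of the culture's 55.4 CPM.

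Fabp7, a carrier of polyunsaturated fatty acids made by radial glia, had the highest level per kilobase of exon of all members in each group. That level was 399 ± 94.7 CPM per kilobase in PDGF-B-labelled gliomas and 471 ± 183 in EGFRvIII-labelled gliomas (SD, n = 3 each), against 2479.9 in the culture. By library, Fabp7 (ENSMUSG00000019874, chromosome 10, 57784881 to 57788450) was read at 447, 415 and 634 CPM in PDGF-B-labelled gliomas and at 747, 692 and 325 CPM in EGFRvIII-labelled gliomas, against 3099.9 CPM in the culture. It remained abundant in every glioma and was nevertheless lower than in the culture in both groups. The log2 fold change was -2.66 ± 0.51 (limma adjusted p = 0.021) in PDGF-B-labelled gliomas and -2.49 ± 0.51 (limma adjusted p = 0.0239) in EGFRvIII-labelled gliomas. The call in PDGF-B-labelled gliomas ended without replicate 1 (limma adjusted p = 0.0611) or replicate 2 (0.0511).

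Prom1, which encodes the stem cell surface protein CD133, was among the lowest members in the gliomas. Prom1 (ENSMUSG00000029086, chromosome 5, 43993620 to 44102032) was read at 0.924, 0.697 and 2.85 CPM in PDGF-B-labelled gliomas and at 1.84, 4.70 and 2.33 CPM in EGFRvIII-labelled gliomas, against 34.97 CPM in the culture. It fell by 4.76 ± 0.86 on the log2 scale in PDGF-B-labelled gliomas (limma adjusted p = 0.0168) and by 3.66 ± 0.86 in EGFRvIII-labelled gliomas (limma adjusted p = 0.0395), a call that ended without EGFRvIII replicate 1 or 3 (0.0954 and 0.104). Hopx, a homeodomain protein without DNA binding that marks outer radial glia in human cortex and quiescent stem cells in mouse, was read at 0.754, 1.27 and 6.004 CPM in PDGF-B-labelled gliomas and at 2.29, 5.77 and 1.93 CPM in EGFRvIII-labelled gliomas, against 44.2 CPM in the culture. Hopx (ENSMUSG00000059325, chromosome 5, 77086988 to 77115121) was lower in PDGF-B-labelled gliomas (log2 fold change -4.56 ± 1.11, limma adjusted p = 0.0464), and it missed the threshold in EGFRvIII-labelled gliomas (-3.88 ± 1.11, limma adjusted p = 0.0775). The Hopx call ended without PDGF-B replicate 1 or 2 (limma adjusted p of 0.0893 and 0.098). Msi1, an RNA-binding protein of neural stem cells, was one of the most even genes of the list: it lay at 56.2, 83.3 and 57.7 CPM in PDGF-B-labelled gliomas and at 47.6, 46.2 and 57.2 CPM in EGFRvIII-labelled gliomas, against 77.5 CPM in the culture, and was not called.

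**Figure D2:**
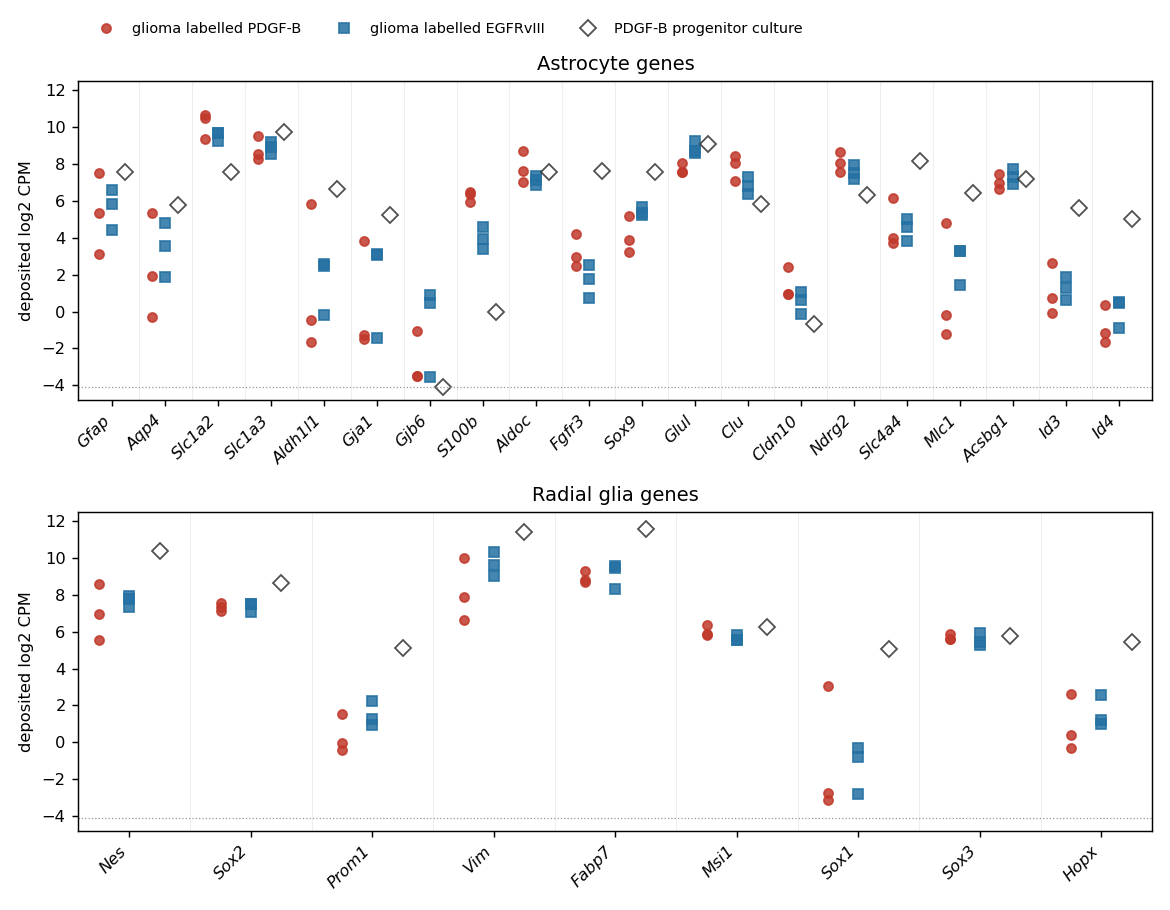
Deposited log2 CPM of each of the 29 genes in every library (vertical axis; the dotted line is the floor of the deposited values, where a gene has no reads), astrocyte genes in one panel and radial glia genes in the other. Points are single libraries of PDGF-B-labelled gliomas, EGFRvIII-labelled gliomas and the culture; the culture point lies above all glioma points for 7 of 9 radial glia genes and 11 of 20 astrocyte genes.

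Among the astrocyte genes, a growth factor receptor and 3 regulators of transcription were lower in PDGF-B-labelled gliomas than in the culture. Fgfr3, the fibroblast growth factor receptor carried by astrocytes and their precursors (ENSMUSG00000054252, chromosome 5, 33721674 to 33737068), was read at 5.40, 7.76 and 18.5 CPM in PDGF-B-labelled gliomas and at 1.58, 3.38 and 5.64 CPM in EGFRvIII-labelled gliomas, against 194 CPM in the culture. All 6 gliomas were far below the culture. The log2 fold change was -4.39 ± 0.83 (limma adjusted p = 0.0206) in PDGF-B-labelled gliomas and -5.93 ± 0.83 (limma adjusted p = 0.00521) in EGFRvIII-labelled gliomas. A transcript on the other strand shares 13.9% of the exon bases of Fgfr3, and an antisense transcript shares 27.2% of those of Hopx; of the 29 members 8 share exon bases with another gene, and the sources used here do not give the strand setting of the counting.

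The inhibitors of DNA binding Id3 and Id4, which pair with helix-loop-helix factors and hold back neuronal differentiation, were likewise lower in both glioma groups than in the culture. Id4 (ENSMUSG00000021379, chromosome 13, 48261228 to 48266026) was read at 0.262, 0.391 and 1.23 CPM in PDGF-B-labelled gliomas and at 0.488, 1.35 and 1.39 CPM in EGFRvIII-labelled gliomas, against 32.3 CPM in the culture. Its log2 fold change was -5.83 ± 0.92 (limma adjusted p = 0.0107) in PDGF-B-labelled gliomas and -4.97 ± 0.92 (limma adjusted p = 0.0173) in EGFRvIII-labelled gliomas. Fgfr3 and Id4 were the members whose calls against the culture held in both comparisons under all 8 alternative settings tried and without any 1 glioma of the group compared. Id3 (ENSMUSG00000007872, chromosome 4, 136143497 to 136145755) was read at 0.903, 1.58 and 6.16 CPM in PDGF-B-labelled gliomas and at 2.41, 3.64 and 1.47 CPM in EGFRvIII-labelled gliomas, against 48.3 CPM in the culture. It fell by 4.50 ± 1.00 on the log2 scale in PDGF-B-labelled gliomas (limma adjusted p = 0.0347) and by 4.33 ± 1.00 in EGFRvIII-labelled gliomas (limma adjusted p = 0.038). These calls ended without PDGF-B replicate 1 or 2 (limma adjusted p of 0.0651 and 0.0759) and without any 1 of the EGFRvIII replicates (0.0616 to 0.0996).

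Sox9, the transcription factor that switches neural stem cells toward glia (ENSMUSG00000000567, chromosome 11, 112782224 to 112787760), was read at 14.6, 9.45 and 36.8 CPM in PDGF-B-labelled gliomas and at 37.1, 40.4 and 50.02 CPM in EGFRvIII-labelled gliomas, against 191 CPM in the culture. Each group kept its own range, PDGF-B-labelled gliomas lowest and the culture highest. Sox9 fell by 3.47 ± 0.65 on the log2 scale in PDGF-B-labelled gliomas against the culture (limma adjusted p = 0.0203), a call that ended without replicate 1 (0.0519). In EGFRvIII-labelled gliomas the log2 fold change was -2.17 ± 0.65 (limma adjusted p = 0.0881), and it was not called.

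Glutamate handling, the best known task of astrocytes, was split. Slc1a2, the main glutamate transporter of the adult forebrain (GLT-1; ENSMUSG00000005089, chromosome 2, 102658659 to 102790784), was read at 1469, 1619 and 656 CPM in PDGF-B-labelled gliomas and at 827, 611 and 834 CPM in EGFRvIII-labelled gliomas, against 189.9 CPM in the culture. All gliomas were above the culture. The log2 fold change was 2.61 ± 0.52 (limma adjusted p = 0.0241) in PDGF-B-labelled gliomas, a call that ended without replicate 1 (0.067), and 1.98 ± 0.52 (limma adjusted p = 0.0587) in EGFRvIII-labelled gliomas. Slc1a3, the transporter of radial glia and young astrocytes (GLAST), was read at 367, 311 and 743 CPM in PDGF-B-labelled gliomas and at 380.0, 589.8 and 491 CPM in EGFRvIII-labelled gliomas, against 863 CPM in the culture, and was not called.

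Glul, which encodes glutamine synthetase, separated the glioma groups without passing the test. It was read at 189.7, 262 and 191 CPM in PDGF-B-labelled gliomas and at 427, 602 and 392.05 CPM in EGFRvIII-labelled gliomas, against 538 CPM in the culture. The log2 fold change between the glioma groups was -1.13 ± 0.24 (limma adjusted p = 0.0538). Macrophages and oligodendrocytes are also known to make glutamine synthetase, and the summed microglia and macrophage markers ran in the same direction, at 449 to 2057 CPM in PDGF-B-labelled gliomas and 6898 to 15933 CPM in EGFRvIII-labelled gliomas. The sums of oligodendrocyte markers ran the other way, the myelin genes at 864 to 1074 CPM in PDGF-B-labelled gliomas and 461 to 646 CPM in EGFRvIII-labelled gliomas, and the culture held its 538 CPM of Glul with a microglia sum of 7.76 CPM. The part of these cells in the result was not tested.

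The genes of end-feet and coupling were uneven among replicates. Aqp4, the water channel of end-feet, was read at 0.757, 3.70 and 40.7 CPM in PDGF-B-labelled gliomas and at 3.67, 27.6 and 11.7 CPM in EGFRvIII-labelled gliomas, against 54.4 CPM in the culture. Mlc1, a membrane protein of the same end-feet, was read at 0.379, 0.818 and 27.8 CPM in PDGF-B-labelled gliomas and at 2.70, 9.86 and 9.65 CPM in EGFRvIII-labelled gliomas, against 86.8 CPM in the culture. Gja1, which encodes the gap junction protein connexin 43, was read at 0.350, 0.303 and 14.3 CPM in PDGF-B-labelled gliomas and at 0.315, 8.70 and 8.20 CPM in EGFRvIII-labelled gliomas, against 37.4 CPM in the culture. For all 3 genes the culture was highest, PDGF-B replicate 3 was highest in its group, and no comparison passed the test. Gjb6, which encodes connexin 30, a marker of mature astrocytes, was read at 0.0291, 0.0303 and 0.420 CPM in PDGF-B-labelled gliomas and at 0.0287, 1.79 and 1.34 CPM in EGFRvIII-labelled gliomas. The culture held no Gjb6 read, which allows up to 0.0868 CPM, and the smallest glioma values stand for 1 read.

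Slc4a4, the sodium bicarbonate cotransporter of astrocytes (ENSMUSG00000060961, chromosome 5, 88886818 to 89239653), was read at 12.9, 15.997 and 71.0 CPM in PDGF-B-labelled gliomas and at 32.7, 14.0 and 24.4 CPM in EGFRvIII-labelled gliomas, against 283 CPM in the culture. It fell by 3.66 ± 0.91 on the log2 scale in EGFRvIII-labelled gliomas (limma adjusted p = 0.0491), a call that ended without any 1 of those 3 gliomas (0.0811 to 0.11). In PDGF-B-labelled gliomas the log2 fold change was -3.52 ± 0.91 (limma adjusted p = 0.0555). Cldn10, a tight junction protein found in astrocytes, was low throughout, at 1.86, 5.27 and 1.85 CPM in PDGF-B-labelled gliomas and at 2.06, 1.49 and 0.845 CPM in EGFRvIII-labelled gliomas, against 0.579 CPM in the culture, and was not called.

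Gfap, the intermediate filament by which astrocytes are usually stained, passed no test. It was read at 8.505, 41.2 and 184 CPM in PDGF-B-labelled gliomas and at 21.6, 97.1 and 57.4 CPM in EGFRvIII-labelled gliomas, against 193 CPM in the culture. The replicates of one label differed by 21.7 times in PDGF-B-labelled gliomas and by 4.49 times in EGFRvIII-labelled gliomas, and all were under the culture. Aldh1l1, a folate enzyme widely used as a marker of all astrocytes, was wider still, at 0.262, 0.667 and 56.9 CPM in PDGF-B-labelled gliomas and at 0.803, 5.47 and 5.89 CPM in EGFRvIII-labelled gliomas, against 101 CPM in the culture. It was not called (limma adjusted p of 0.231 and 0.299 against the culture).

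S100b, a calcium-binding protein made by astrocytes and also by cells of the oligodendrocyte lineage, was the one member called in all 3 comparisons. S100b (ENSMUSG00000033208, chromosome 10, 76253853 to 76261159) was read at 88.2, 82.4 and 61.4 CPM in PDGF-B-labelled gliomas and at 23.9, 10.6 and 15.0 CPM in EGFRvIII-labelled gliomas, against 0.939 CPM in the culture. The 3 groups did not overlap. Against the culture it rose by 6.26 ± 0.46 on the log2 scale in PDGF-B-labelled gliomas (limma adjusted p = 0.00122) and by 3.97 ± 0.46 in EGFRvIII-labelled gliomas (limma adjusted p = 0.00243). Slc1a2, Clu, Cldn10 and Ndrg2 likewise stood above the culture in all 6 gliomas, while 11 of the 20 astrocyte genes, Gfap, Aldh1l1 and Fgfr3 among them, stood below it. Markers of oligodendrocyte precursors moved with it, their summed level being 8562 to 17203 CPM in PDGF-B-labelled gliomas and 6810 to 7490 CPM in EGFRvIII-labelled gliomas, against 2484 CPM in the culture, with every marker read in all libraries. Their part in the result was not tested.

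A further 4 astrocyte genes, for enzymes and for soluble or secreted proteins, lay around or above the culture and were not called. Clu, which encodes the secreted chaperone clusterin, was read at 270.1, 349 and 135 CPM in PDGF-B-labelled gliomas and at 111, 155 and 82.3 CPM in EGFRvIII-labelled gliomas, against 57.0 CPM in the culture (log2 fold changes against the culture of 2.04 ± 0.55 and 0.98 ± 0.55, limma adjusted p of 0.0616 and 0.335). Ndrg2, a differentiation marker of astrocytes, was read at 270.2, 397 and 188 CPM in PDGF-B-labelled gliomas and at 184, 248 and 148 CPM in EGFRvIII-labelled gliomas, against 79.2 CPM in the culture (limma adjusted p of 0.0509 and 0.139). Every glioma exceeded the culture for both genes. Aldoc, the aldolase of astrocytes, lay at 129 to 424 CPM in PDGF-B-labelled gliomas, on both sides of the culture's 192 CPM. In EGFRvIII-labelled gliomas it lay below the culture, at 118 to 167 CPM. Acsbg1, an acyl-CoA synthetase, lay at 98.6 to 177 CPM in PDGF-B-labelled gliomas and at 120.1 to 215 CPM in EGFRvIII-labelled gliomas, around the culture's 144 CPM.

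**Figure D3:**
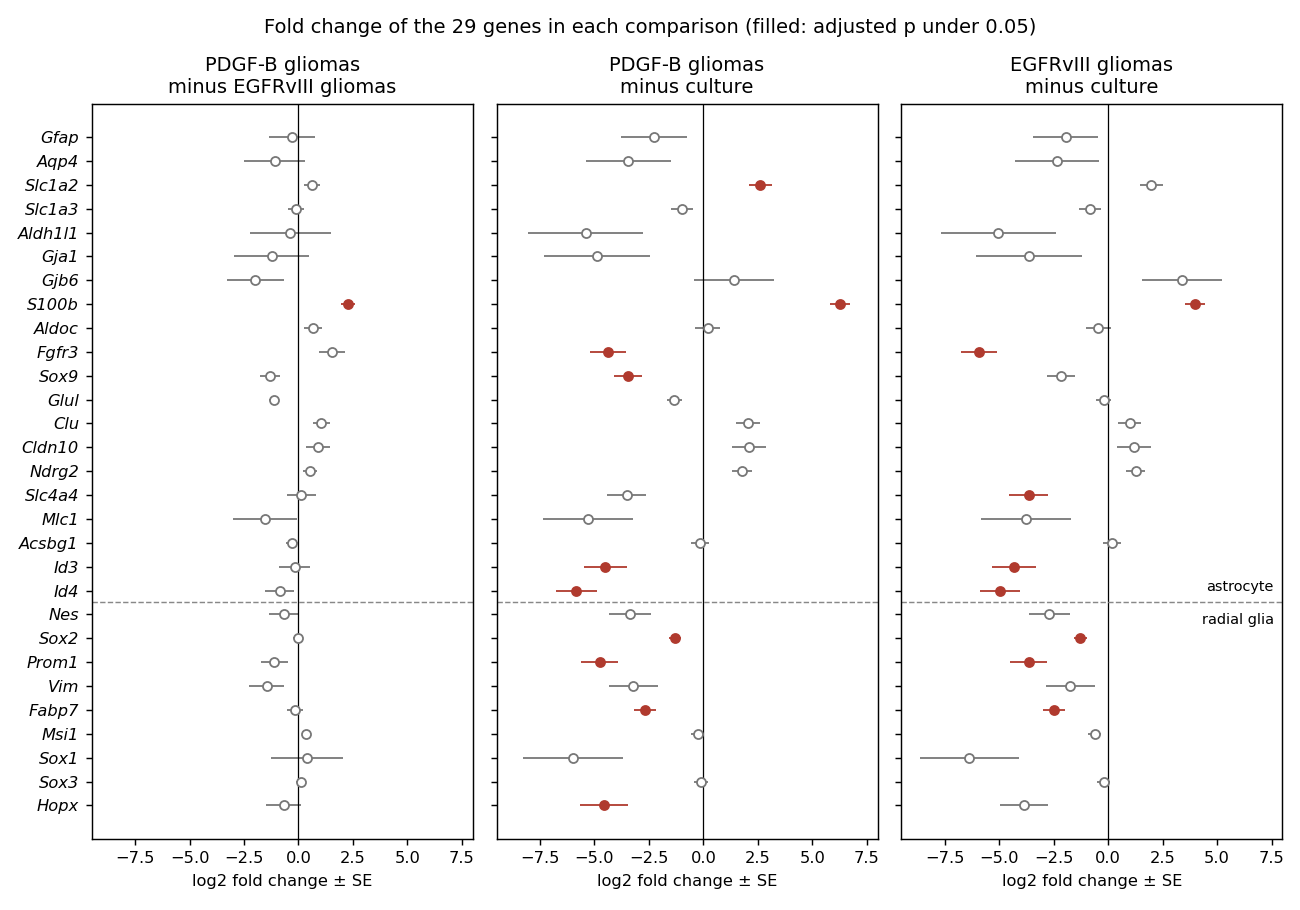
Log2 fold change with its standard error for each of the 29 genes in PDGF-B-labelled gliomas against EGFRvIII-labelled gliomas and in each glioma group against the culture, one panel per comparison (filled symbols, limma adjusted p under 0.05; the dashed line divides astrocyte from radial glia genes). S100b is filled in every panel, at 2.29 between the glioma groups and at 6.26 and 3.97 against the culture, and no radial glia gene is filled to the right of 0.

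Between the 2 glioma groups, 1 of the 29 members was called where 3.35% of all genes were, 0.717% upward and 2.63% downward. S100b was higher in PDGF-B-labelled gliomas, at 77.3 ± 14.1 CPM, than in EGFRvIII-labelled gliomas, at 16.5 ± 6.80 CPM (SD, n = 3 each), with a log2 fold change of 2.29 ± 0.32 (limma adjusted p = 0.025). The call held without PDGF-B replicate 3 or without EGFRvIII replicate 1 and ended without any 1 of the other 4 gliomas (limma adjusted p of 0.0906 to 0.0964). The groups did not overlap for 3 astrocyte genes (S100b, Glul and Sox9) and for none of the radial glia genes, where 22.9% of all genes did not overlap. Sox9 was lower in each glioma labelled PDGF-B, with a log2 fold change of -1.29 ± 0.47 that missed the threshold (limma adjusted p = 0.22). Of the 9 radial glia genes, none reached an unadjusted limma p of 0.05, and 5 of the 20 astrocyte genes did. Over all genes, 2906 of 17422 did.

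These calls were not the same without PDGF-B replicate 3. In its absence, 1282 genes (7.36%) were called between the glioma groups in place of 583, and 5 members: S100b and Clu higher, and Sox9, Mlc1 and Vim lower in PDGF-B-labelled gliomas. Mlc1 then had a log2 fold change of -3.38 (limma adjusted p = 0.0335), Sox9 of -1.84 (0.0114), Vim of -2.38 (0.0377) and Clu of 1.45 (0.0399). Against the culture, its absence raised the members called to 11 astrocyte and 7 radial glia genes, while the calls over all genes rose to 2303 (13.2%) from 1647: Aldh1l1, Mlc1, Slc4a4, Nes, Vim and Sox1 were then also lower and Clu and Ndrg2 also higher. The labels record nothing that sets this library apart, and it is included in all values given elsewhere.

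The members varied more among replicates of one label than genes in general. In PDGF-B-labelled gliomas, the highest and lowest replicate differed by more than 2 on the log2 scale for 9 of 20 astrocyte genes and 4 of 9 radial glia genes, against 9.71% of all genes, and the median range was 1.86 and 1.95 against 0.51 for all genes. In EGFRvIII-labelled gliomas, the range exceeded 2 for 5 of 20 and 1 of 9, against 8.13% of all genes, with medians of 1.23 and 1.199 against 0.75. These shares are descriptions, since low genes range more widely on a log scale and members were not matched for level. PDGF-B replicate 3 was the highest of its group for 13 of 20 astrocyte genes and 7 of 9 radial glia genes, against 39.5% of all genes. EGFRvIII replicate 1 was the lowest of its group for 11 of 20 and 5 of 9, against 32.5% of all genes.

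The widest genes were Aldh1l1, whose range was 7.48 on the log2 scale in PDGF-B-labelled gliomas, Sox1 with 6.19, Mlc1 with 5.99, Aqp4 with 5.64 and Gja1 with 5.31. In EGFRvIII-labelled gliomas the widest were Gja1 with 4.55, Gjb6 with 4.42, Aqp4 with 2.89 and Aldh1l1 with 2.79. Aldh1l1, Aqp4 and Gja1 were thus among the widest in both groups. The narrowest in PDGF-B-labelled gliomas were Sox3 with 0.27, Sox2 with 0.44, Glul with 0.47 and S100b with 0.52. Other lists differed between the same replicates: the summed mitosis genes stood at 1171, 151 and 1249 CPM in PDGF-B-labelled gliomas, and the microglia markers at 449, 638 and 2057 CPM. Their part in the spread of the members was not tested.

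**Figure D4:**
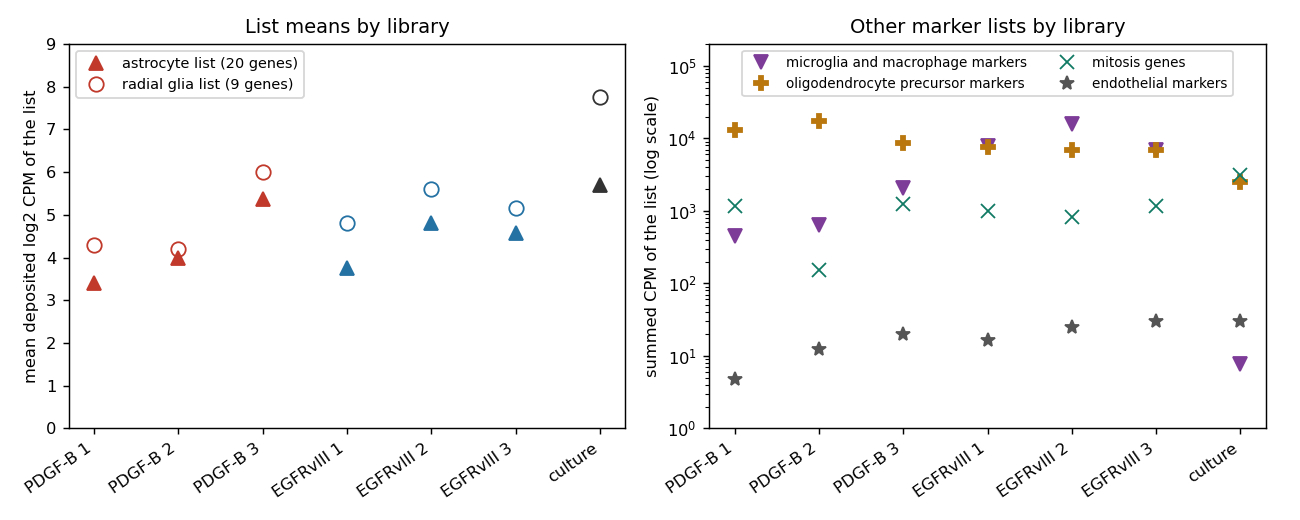
Left, mean deposited log2 CPM of the 20 astrocyte and the 9 radial glia genes in each library; right, summed CPM of other marker lists on a log axis. The radial glia mean is 4.19 to 6.01 in the gliomas and 7.75 in the culture, and the microglia and macrophage sum is 449 CPM or more in each glioma and 7.76 CPM in the culture.

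As a mean over each list, the astrocyte genes stood at 3.41, 3.98 and 5.37 log2 CPM in PDGF-B-labelled gliomas and at 3.76, 4.82 and 4.57 in EGFRvIII-labelled gliomas, against 5.71 in the culture. The radial glia genes stood at 4.30, 4.19 and 6.01 in PDGF-B-labelled gliomas and at 4.82, 5.62 and 5.16 in EGFRvIII-labelled gliomas, against 7.75 in the culture. Both means were lower in every glioma than in the culture, while the mean over all genes was 3.51 to 3.70 in the gliomas, against 3.33 in the culture. The difference of the astrocyte mean less the radial glia mean, in which gene length cancels between libraries, was -0.58 ± 0.34 in PDGF-B-labelled gliomas and -0.81 ± 0.24 in EGFRvIII-labelled gliomas (SD, n = 3 each), against -2.04 in the culture. The distance between the lists was thus smaller in each glioma than in the culture, but with medians over the members in place of means the difference had the other sign in the culture, where it was 0.27. By library that version was -2.42, -2.23 and 0.036 in PDGF-B-labelled gliomas and -1.06, -1.66 and -1.58 in EGFRvIII-labelled gliomas, so PDGF-B replicate 3 shared the sign of the culture, and the mean of its group was -1.54 with it and -2.32 without it.

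Levels of different genes were compared per kilobase of exon. In PDGF-B-labelled gliomas, Fabp7 led with 399 CPM per kilobase, followed by Vim with 95.9, Slc1a2 with 95.0, Ndrg2 with 83.9, Sox2 with 78.5, Aldoc with 76.6 and Clu with 73.2. The SDs of Vim (106) and Slc1a2 (39.5) exceed the steps between these neighbours, so that the order below Fabp7 is not fixed by the data. In EGFRvIII-labelled gliomas the order was Fabp7 with 471, Vim with 181, Glul with 143, Sox2 with 80.1 and Slc1a2 with 57.7. In the culture the first 4 places were held by radial glia genes, Fabp7 with 2479.9, Vim with 568, Nes with 209 and Sox2 with 193, ahead of Glul with 162 and Slc1a3 with 101. The lowest in PDGF-B-labelled gliomas were Gjb6 with 0.0598, Id4 with 0.163 and Prom1 with 0.208 CPM per kilobase.

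Genes of other lists for the same cells were read in the same way, with 31 of 32 other astrocyte genes measured. In PDGF-B-labelled gliomas 6 were called higher and 1 lower than in the culture, where 7.73% and 1.73% of all genes were. In EGFRvIII-labelled gliomas 5 were higher and 3 lower, where 8.2% and 1.34% of all genes were. Gpr37l1, a receptor of astrocytes and oligodendrocyte precursors, led both sets of higher genes. It was read at 398, 633 and 322 CPM in PDGF-B-labelled gliomas and at 346, 412 and 222 CPM in EGFRvIII-labelled gliomas, against 4.02 CPM in the culture (log2 fold changes of 6.73 ± 0.46 and 6.28 ± 0.46, limma adjusted p of 0.000962 and 0.000533). Nfib, a nuclear factor I gene that drives gliogenesis, was lower in both, at 197, 172 and 214 CPM in PDGF-B-labelled gliomas and 172, 162 and 206 CPM in EGFRvIII-labelled gliomas, against 612 CPM in the culture (log2 fold changes of -1.66 ± 0.26 and -1.77 ± 0.26, limma adjusted p of 0.00999 and 0.00603). The lower gene of largest change in EGFRvIII-labelled gliomas was Slc25a18, a mitochondrial glutamate carrier, at 3.27, 6.49 and 10.0 CPM against 43.8 CPM in the culture (-2.86 ± 0.63, limma adjusted p = 0.031), a call that ended without replicate 2 (0.0642). Both directions were thus called in this list and among the members, but the 2 lists leaned opposite ways. Of the 31 genes, 12 stood above the culture in all 6 gliomas and 6 below, against 5 and 11 of the 20 astrocyte members. The median log2 fold change of the 31 was 0.65 in PDGF-B-labelled gliomas and 0.90 in EGFRvIII-labelled gliomas, against -1.80 and -1.41 for the members.

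Between the glioma groups, Apoe, the apolipoprotein of astrocytes and of activated microglia, was the only gene called among these 31. It was read at 367, 663 and 2438 CPM in PDGF-B-labelled gliomas, against 10002, 11259.6 and 6981 CPM in EGFRvIII-labelled gliomas, with 129 CPM in the culture. The log2 fold change between the glioma groups was -3.46 ± 0.65 (limma adjusted p = 0.0387), and the call held without PDGF-B replicate 3 and ended without any 1 of the other 5 gliomas (0.111 to 0.171). It also ended with plain empirical Bayes (0.0675) and narrowly with voom on recovered reads (0.0502). Of the 15 microglia and macrophage markers, 14 were lower in PDGF-B-labelled gliomas, and their summed level was given above. Their part in the Apoe result was not tested.

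Of 17 genes of reactive astrocytes, 16 were measured. In all 6 gliomas 6 of the 16 stood below the culture and 4 above it. The median log2 fold change was -1.75 in PDGF-B-labelled gliomas and -0.61 in EGFRvIII-labelled gliomas against the culture. Where 7.73% and 8.2% of all genes were called higher, 3 of the 16 were higher than in the culture in each glioma group, with none lower. Serpina3n, a secreted protease inhibitor, led them, at 227, 972 and 176 CPM in PDGF-B-labelled gliomas and at 225, 462 and 159.6 CPM in EGFRvIII-labelled gliomas, against 3.15 CPM in the culture (log2 fold changes of 6.73 ± 0.95 and 6.32 ± 0.95, limma adjusted p of 0.00721 and 0.007). Between the glioma groups Cp, the copper-carrying ferroxidase ceruloplasmin, was higher in PDGF-B-labelled gliomas, at 204, 193 and 236 CPM against 67.9, 51.6 and 27.8 CPM (2.19 ± 0.32, limma adjusted p = 0.0258). Icam1, an adhesion molecule for leukocytes, was lower, at 12.1, 21.5 and 13.2 CPM against 48.1, 72.0 and 50.3 CPM (-1.88 ± 0.28, limma adjusted p = 0.027). Both calls held without PDGF-B replicate 3 and ended without any 1 of the other 5 gliomas (limma adjusted p of 0.0585 to 0.105), and both ended with plain empirical Bayes (0.0526 for each).

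Of 21 other radial glia genes, 20 were measured. In all 6 gliomas 14 of the 20 stood below the culture and 2 above it, where 24% and 27.4% of all genes did. The median log2 fold change against the culture was -1.31 in PDGF-B-labelled gliomas and -1.43 in EGFRvIII-labelled gliomas. In PDGF-B-labelled gliomas 5 were called lower than in the culture (Hes5, Pdpn, Cdh2, Lhx2 and Emx2), where 1.73% of all genes were. In EGFRvIII-labelled gliomas 6 were called lower (Hes5, Cdh2, Sox21, Lhx2, Emx2 and Notch1), where 1.34% of all genes were, with none higher in either. Several of these calls were close to the threshold. Among 8 alternative settings, the call of Cdh2 in PDGF-B-labelled gliomas and that of Notch1 in EGFRvIII-labelled gliomas held in 1 each and that of Sox21 in 3; without 1 glioma, Cdh2 held in none of 3 fits, Notch1 and Sox21 in 1 each, and Emx2 in PDGF-B-labelled gliomas in 1 (limma adjusted p of 0.0677 to 0.163 where they ended). Hes5, whose start region is printed above, was read at 3.49, 6.51 and 4.69 CPM in PDGF-B-labelled gliomas and at 1.98, 4.05 and 4.93 CPM in EGFRvIII-labelled gliomas, against 49.4 CPM in the culture. It fell by 3.36 ± 0.60 on the log2 scale in PDGF-B-labelled gliomas (limma adjusted p = 0.0167) and by 3.84 ± 0.60 in EGFRvIII-labelled gliomas (limma adjusted p = 0.00826). Pdpn, the glycoprotein podoplanin, had the largest fold change of the 5 called genes in PDGF-B-labelled gliomas, at 2.14, 6.41 and 5.38 CPM against 63.1 CPM in the culture (-3.89 ± 0.90, limma adjusted p = 0.0399), a call that ended without replicate 1 (0.0796) or replicate 2 (0.0557) and under 3 of the 8 settings. None of the 20 was called between the glioma groups, where 3.35% of all genes were. An unadjusted limma p under 0.05 was found for 3 of them, and for 2906 of all 17422 genes. The 10 mitosis genes also stood below the culture in every glioma, none of them called by limma. In PDGF-B-labelled gliomas 4 of them had an unadjusted limma p under 0.05, where 4733 of all 17422 genes did. In EGFRvIII-labelled gliomas 0 of them did, where 4157 of all 17422 genes did. The sum of the mitosis genes was 151 to 1249 CPM in PDGF-B-labelled gliomas. It was 820 to 1172 CPM in EGFRvIII-labelled gliomas and 3134 CPM in the culture. The part of the mitosis genes in the result was not tested.

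**Figure D5:**
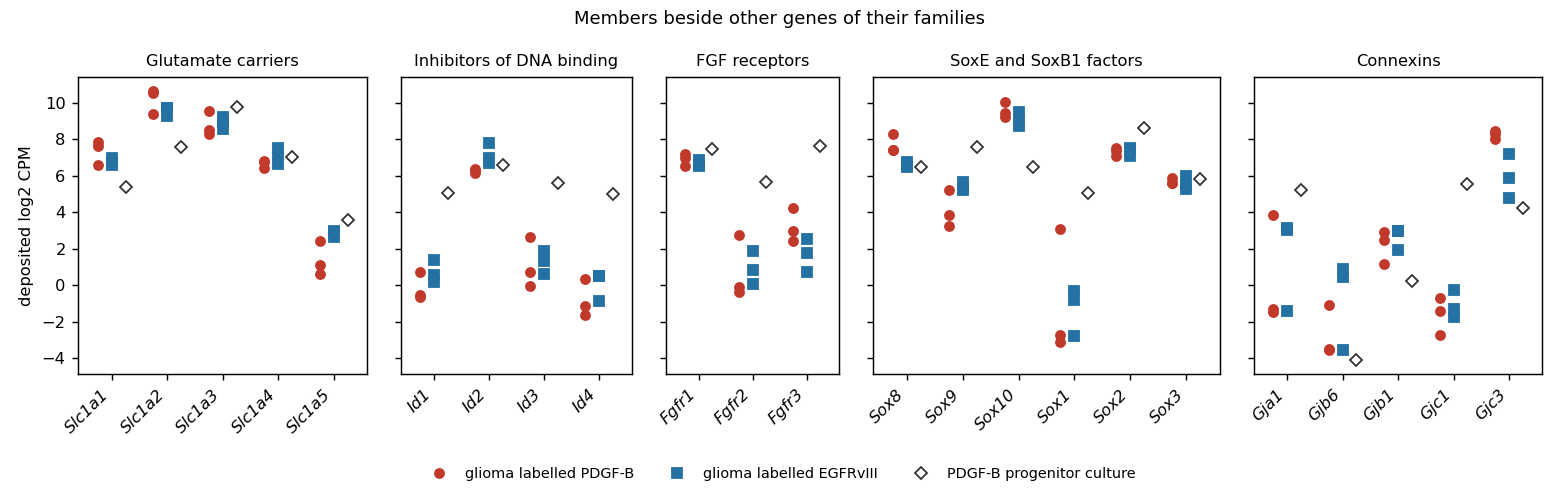
Deposited log2 CPM of members beside other genes of their families (glutamate carriers, inhibitors of DNA binding, fibroblast growth factor receptors, SoxE and SoxB1 factors, and connexins, one panel each), with 1 point per library for PDGF-B-labelled gliomas, EGFRvIII-labelled gliomas and the culture. Id1, Id3 and Id4 are highest in the culture and Id2 is not; Fgfr2 and Fgfr3 show the culture far above the gliomas, and Fgfr1 shows the groups close together.

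Of 34 relatives of the members from the same families, 28 were measured, and within a family some were called and others were not. Id1, Id2, Fgfr1, Fgfr2, Gjc3 and Sox10 are named here after their values were seen. Of the Id genes, Id1 was read at 0.641, 0.576 and 1.57 CPM in PDGF-B-labelled gliomas and at 1.06, 2.51 and 1.39 CPM in EGFRvIII-labelled gliomas, against 33.3 CPM in the culture, and it fell by 5.22 ± 0.73 and 4.37 ± 0.73 on the log2 scale (limma adjusted p of 0.00707 and 0.0109). Id2 lay at 72.0 to 83.2 CPM in PDGF-B-labelled gliomas, below the culture's 96.9 CPM. In EGFRvIII-labelled gliomas it lay above the culture, at 105 to 223 CPM, and it was not called. Of the fibroblast growth factor receptors, Fgfr1 lay at 93.7 to 148 CPM in PDGF-B-labelled gliomas and at 93.9 to 118 CPM in EGFRvIII-labelled gliomas, against 177 CPM in the culture, and was not called. Fgfr2 lay at 0.727 to 6.56 CPM and at 1.00 to 3.61 CPM, against 49.4 CPM in the culture, and just missed the threshold (limma adjusted p of 0.0518 and 0.0588).

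Among the connexins, Gjc1, which encodes connexin 45, had the largest fall of these relatives, at 0.320, 0.0909 and 0.560 CPM in PDGF-B-labelled gliomas and at 0.344, 0.239 and 0.763 CPM in EGFRvIII-labelled gliomas, against 46.8 CPM in the culture (log2 fold changes of -7.17 ± 0.94 and -6.67 ± 0.94, limma adjusted p of 0.0057 and 0.0053). Gjc3, the connexin of myelinating glia, stood on the other side, at 261, 315 and 348 CPM in PDGF-B-labelled gliomas and at 143, 27.1 and 59.1 CPM in EGFRvIII-labelled gliomas, against 18.7 CPM in the culture. It was higher than in the culture in PDGF-B-labelled gliomas (4.02 ± 0.76, limma adjusted p = 0.0206; 0.059 with voom) and not called in EGFRvIII-labelled gliomas (1.71 ± 0.76, limma adjusted p = 0.228). Slc4a10, a relative of the bicarbonate transporter Slc4a4 found mainly in neurons, rose by 5.98 ± 0.80 and 5.67 ± 0.80 on the log2 scale (limma adjusted p of 0.00613 and 0.0053), to 97.7, 106 and 25.0 CPM in PDGF-B-labelled gliomas and 76.8, 38.5 and 46.6 CPM in EGFRvIII-labelled gliomas, against 0.955 CPM in the culture. Sox10, the oligodendrocyte lineage partner of Sox9 within the SoxE family, rose by 3.12 ± 0.41 and 2.63 ± 0.41 (limma adjusted p of 0.00596 and 0.00826), to 604 to 1059 CPM in PDGF-B-labelled gliomas and 422 to 711 CPM in EGFRvIII-labelled gliomas, against 87.7 CPM in the culture. Of the 28 relatives, 6 were called higher and 4 lower in PDGF-B-labelled gliomas than in the culture, where 7.73% and 1.73% of all genes were. In EGFRvIII-labelled gliomas 4 were higher and 4 lower, where 8.2% and 1.34% of all genes were. No relative was called between the glioma groups, where 3.35% of all genes were. Of the 28 relatives, 9 had an unadjusted limma p under 0.05, where 2906 of all 17422 genes did.

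Markers of other cell types were present at different levels. Every one of the 15 microglia and macrophage markers had reads in the gliomas, which had been sorted for DsRed, while 3 had none in the culture (C1qb, Trem2 and Tyrobp), where the sum was 7.76 CPM. Endothelial markers, 7 of 10 measured, summed to 4.78 to 19.8 CPM in PDGF-B-labelled gliomas and 16.4 to 30.2 CPM in EGFRvIII-labelled gliomas, against 29.9 CPM in the culture, and ependymal markers, 4 of 10 measured, to 3.42 to 6.02 CPM and 4.34 to 8.02 CPM, against 15.2 CPM. Myelin genes summed to 864 to 1074 CPM in PDGF-B-labelled gliomas and 461 to 646 CPM in EGFRvIII-labelled gliomas, against 215 CPM in the culture. Neuron markers summed to 116 to 232 CPM in PDGF-B-labelled gliomas and 75.4 to 171 CPM in EGFRvIII-labelled gliomas, against 93.4 CPM in the culture, and neuroblast markers to 625 to 699 CPM and 497 to 624 CPM, against 1116 CPM. Mural and fibroblast markers, 9 of 10 measured, summed to 7.12 to 18.9 CPM in PDGF-B-labelled gliomas and 11.2 to 23.7 CPM in EGFRvIII-labelled gliomas, against 23.9 CPM in the culture. Of the endothelial and mural lists, Cdh5, Cldn5, Vtn and Kcnj8 had no reads in the culture.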

How the data were processed

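The deposited values were log2 CPM per gene, 1 library per file. Per the file headers, 6 of the 7 libraries carry the unit logcpm; the header of EGFRvIII replicate 3 names none, and its values lie on the same floor and grid. STAR, edgeR and the mm10 genome are named in the submitters' processing notes; the gene counter, its use of strand and the filter on low genes were not given in the sources used here, and the labels name both poly(A) selection and rRNA depletion. The authors' scaling, with a prior count of 2, could be undone: 100% of values fell on a grid of 0.01 reads (within 0.001 of a step), and 36.2% to 38.4% of values were whole reads (within 0.02). CPM and reads were recovered in this way; since most values were fractions of reads, no count test was the main test. Gene symbols were found for 17254 of 17422 IDs.

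Differences were tested on the deposited log2 values with limma 3.58.1 (R 4.3.3; trended, robust empirical Bayes), the 6 gliomas for the comparison of the glioma groups and all 7 libraries for those with the culture, with 4 residual degrees of freedom each. The script was tested on simulated data. An error marked SD is the spread over tumours. The SE of a fold change is that of limma, from a variance pooled over the groups and moderated across genes. In the culture comparisons it takes the single culture library to vary as the gliomas do. A library with no read of a gene allows 3 reads, and floors cover counting error only. CPM per kilobase used the union of GENCODE M21 exons, and promoter sequences came from RefSeq GRCm38.p6, with a window for 24 of 29 members. The members, lists and tests were chosen with earlier results of these data known. Values per library are given for members called in at least 1 comparison and the leading members of each role; of other lists, for the called gene of largest fold change in each direction. Alternatives were another scaling, pseudocount, filter, variance model, voom on recovered reads, the replicate number as a block, leaving out each glioma and, chosen after seeing the data, the 6 gliomas as 1 group.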

Additional observations from a re-analysis of the deposited data

Results flagged for a closer look

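The effects of the 2 glioma groups against the shared culture differed for 4 of the genes described, by the limma test of the difference itself, which is the comparison between the glioma groups. The effect in PDGF-B-labelled gliomas minus that in EGFRvIII-labelled gliomas was 2.29 on the log2 scale for S100b (limma adjusted p = 0.025). For Cp it was 2.19 (limma adjusted p = 0.0258). For Apoe it was -3.46 (limma adjusted p = 0.0387), and for Icam1 it was -1.88 (limma adjusted p = 0.027). All 3 gliomas of one label lay beyond all 3 of the other for each of the 4 genes, and for 22.9% of all genes. The 4 genes were picked by their calls in these same libraries, so this separation adds no support. Without 1 glioma, S100b kept its call in 2 of 6 fits. Apoe, Cp and Icam1 kept theirs only without PDGF-B replicate 3. Of the 8 alternative settings, 7 kept the call for S100b, 6 for Cp, 5 for Apoe and 6 for Icam1. The glioma labels go against the driver genes, and an exchange of them would turn these signs. Single outlying samples were not tested in groups of 3 libraries.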

How the results depend on the processing

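Of 174 member values between the glioma groups without 1 glioma, 143 kept direction and call, 4 lost and 4 gained a call and 23 changed sign; of 230 under other settings, 225 kept both. In PDGF-B-labelled gliomas against the culture 67 of 87 and 209 of 231 kept both, and in EGFRvIII-labelled gliomas 76 of 87 and 213 of 231. The cause was not tested. Genes called between the glioma groups numbered 583, 224 with plain empirical Bayes, and 4 to 1282 without 1 glioma, astrocyte members 1, 2 with log2(CPM + 0.5), and 0 to 4, and radial glia members 0, and 0 to 1. In PDGF-B-labelled gliomas against the culture, 1647 genes were called, 553 by voom, 757 with the 6 gliomas as 1 group, and 854 to 2303 without 1 glioma; astrocyte members were 6, 3 with the 6 gliomas as 1 group, and 3 to 11 without 1 glioma, and radial glia members were 4, 2 with plain empirical Bayes, voom or the 6 gliomas as 1 group, and 1 to 7 without 1 glioma. In EGFRvIII-labelled gliomas against the culture, 1663 genes were called, 721 by voom, 757 with the 6 gliomas as 1 group, and 1058 to 1612 without 1 glioma; astrocyte members were 5, 3 with plain empirical Bayes, voom or the 6 gliomas as 1 group, and 3 in each fit without 1 glioma, and radial glia members were 3, 5 with log2(CPM + 2), 1 with plain empirical Bayes, and 1 to 3 without 1 glioma.

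The replicate numbers were not taken to pair the tumours. Deviations of same-numbered gliomas correlated at 0.175, -0.0364 and -0.0795, and those of differently numbered gliomas at -0.25 to 0.207. With 3 gliomas per group, these values cannot decide whether the numbers pair the tumours. With the replicate block, 18 genes and 0 astrocyte members (S100b at 2.29, limma adjusted p = 0.0556) were called between the glioma groups (Cp, Apoe and Icam1 at 0.0595, 0.0822 and 0.0548), and radial glia calls against the culture were 2 in PDGF-B-labelled gliomas and 1 in EGFRvIII-labelled gliomas.

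The astrocyte minus radial glia difference was -1.54 in PDGF-B-labelled gliomas, -1.43 in EGFRvIII-labelled gliomas and 0.27 in the culture with medians over members; in the culture it was -1.62 with log2(CPM + 2) and -1.36 over members with at least 1 CPM. Signs changed between the glioma groups for Aldh1l1 (0.0135 with log2(CPM + 0.5), 0.37 with log2(CPM + 2)) and Sox2 (0.0235 with median centring), and in PDGF-B-labelled gliomas against the culture, with the 6 gliomas as 1 group, for Aldoc (-0.12) and Acsbg1 (0.0023). Without 1 glioma, log2 fold changes between the glioma groups crossed 0 for Gfap (-1.40 to 0.82), Aqp4 (-2.61 to 0.21), Slc1a3 (-0.50 to 0.12), Aldh1l1 (-2.66 to 1.08), Slc4a4 (-0.63 to 0.59), Id3 (-0.94 to 0.41), Nes (-1.44 to 0.0666), Sox2 (-0.17 to 0.0862), Fabp7 (-0.55 to 0.046), Sox1 (-1.62 to 1.48) and Sox3 (-0.0343 to 0.30). Against the culture they did so for Aldoc (-0.27 to 0.59) and Acsbg1 (-0.37 to 0.052) in PDGF-B-labelled gliomas and for Acsbg1 (-0.0615 to 0.36) in EGFRvIII-labelled gliomas. Depth limits Gjb6 and Sox1, with 1 to 3 reads in some gliomas.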
